A study of Mus musculus with 2 samples.

Results

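The genes described here are 52 mouse genes known for imprinted expression, taken by symbol from the gene table of a single-nucleus data set of the early mouse embryo. Of the 52 symbols, 51 were found among the 32285 genes in the files, and Nespas was not analysed here. They were arranged by imprinted cluster, a stretch of chromosome whose genes share a control region, with single genes kept apart and with a group known for imprinting in extraembryonic tissue. Their nuclear RNA and the accessibility of their promoters were compared between embryonic and extraembryonic cell classes.

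An imprinted gene is transcribed mainly from the copy inherited from 1 parent, because DNA methylation laid down in the egg or sperm, or repressive histone marks, keeps the other copy silent. Many clusters hold a long non-coding RNA (H19, Airn, Kcnq1ot1, Meg3) beside protein-coding genes that act on the growth of the embryo and placenta, and several genes keep the imprint in the placenta and yolk sac lineages only. The values below carry no information on the parental copy. Each level is the sum over both copies, and imprinting itself was not measured.

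Pooled mouse embryos at E7.0, the gastrula stage, were dissociated, and RNA and open chromatin were profiled in the same nuclei. The groups were the nuclear RNA library and the chromatin accessibility library of these E7.0 nuclei, 1 of each; the number of embryos in the pool is not given in the sources used here, and no treatment is named. The labels conflict: title, age and protocol name E7.0 embryos, whereas other fields name gut sections, Goblet cells and the strain RedMUC298trTg. The 6 goblet and intestinal markers had 5 to 39 UMIs each over all kept nuclei, while markers of E7.0 tissues were abundant. With 1 library per assay no test was possible. The 95% intervals in brackets reflect counting error alone, so they measure the precision of these libraries and not the spread between embryos.

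Of 15341 barcodes, 12796 were kept, with medians of 10471 UMIs and 17350 peak counts per nucleus. Nuclei were divided into classes by their open chromatin, after peaks within 100000 bp of a member's starts had been left out. The classes were named from marker RNA that includes no member. The members' own RNA and the peaks near their starts therefore did not enter the clustering or the marker lists. Peaks farther inside long members could enter the clustering. There were 3698 epiblast-like nuclei, 1060 primitive streak-like, 1178 embryonic mesoderm-like, 901 like anterior streak with node and definitive endoderm, 463 extraembryonic mesoderm-like, 300 haemato-endothelial-like, 1262 visceral endoderm-like, 1268 extraembryonic ectoderm-like and 26 parietal endoderm-like. Among them were clusters with few peak counts: 743 epiblast-like (median 2384), 408 visceral endoderm-like (3281.5) and 355 extraembryonic ectoderm-like nuclei (3574). The epiblast-like one had 4 of 7 epiblast markers raised and was led by Pkd1l1, which also led the anterior streak class. The extraembryonic ectoderm-like one had the trophoblast gene Prl3d1 among its leading genes. Visceral endoderm surrounds the embryo and feeds it, extraembryonic ectoderm is the trophoblast tissue above it that will form the placenta, and extraembryonic mesoderm builds the allantois and yolk sac. The visceral endoderm marker list summed to 16838 CPM (UMIs per 1000000 UMIs of the class) in its class, 859 in epiblast-like and 2213 in extraembryonic ectoderm-like nuclei. The extraembryonic ectoderm list summed to 1666 CPM in its class and 326 in epiblast-like nuclei. Clusters 7, 10, 14, 18, 19 and 21 kept a number and no name. Cluster 18 was led by the trophoblast genes Prl3d1 and Ascl2, cluster 7 by Mamld1 and Pitx1, and cluster 14 by Gckr, Foxq1 and Sfrp5. The markers placed the 434 nuclei of cluster 14 with the anterior streak class, and it was kept apart after its values were seen. The visceral endoderm list summed to 13008 CPM in cluster 7 and 5767 in cluster 14, against 868 in the anterior streak class. The anterior streak list summed to 613 CPM in cluster 14 and 916 in the anterior streak class. Levels given below with cluster 14 kept in that class thus mix in nuclei high for visceral endoderm markers.

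All comparisons are ratios of CPM to the same epiblast-like class, so the comparisons share that class and are set side by side only. CPM compares classes for 1 gene and not genes with each other, since it is not per length. A member counts as higher or lower past a 2-fold ratio with at least 50 UMIs over both classes. In extraembryonic ectoderm-like nuclei, 17 of 51 members were higher and 16 lower, where 10.0% of all 15171 genes were higher and 21.0% lower. The members' median log2 ratio was -0.02 and that of all genes -0.07. For visceral endoderm-like nuclei, 21 of 50 members were higher and 11 lower, against 14.8% and 22.4% of all genes, with medians of 0.51 and -0.15. Scaling by the median of gene ratios, which removes that shift of -0.15, gave 23 higher and 11 lower. It moves the ratios of all genes too, and their shares under that scaling are not given here. In embryonic mesoderm-like nuclei, 9 members were higher and 9 lower out of 50, against 6.4% and 11.3%, with medians of 0.23 and -0.01. Not past 2-fold in any of these comparisons were Mest, Copg2, Ube3a, Kcnq1ot1, Kcnq1, Cd81, Grb10, Blcap, Commd1, Zrsr1 and Trappc9. For 5 of them the ratio in visceral endoderm-like nuclei passed 2-fold under another setting: Kcnq1ot1 (2.10-fold higher) and Trappc9 (2.17-fold) with the median-of-ratios scaling, and Kcnq1 (2.24-fold higher), Mest (2.28-fold lower) and Grb10 (2.28-fold lower) at a clustering resolution of 0.5. At that resolution the class was 1221 nuclei led by Bmp6, Abcc2 and Mamld1. Bmp6 and Mamld1 also led cluster 7, which lies outside the main class. 6330411D24Rik, which led a cluster within the main class, then led an unnamed cluster of 926 nuclei together with Sfrp5. Values for visceral endoderm-like nuclei at resolution 0.5 thus come from a different mix of nuclei, here and below.

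**Figure D1:**
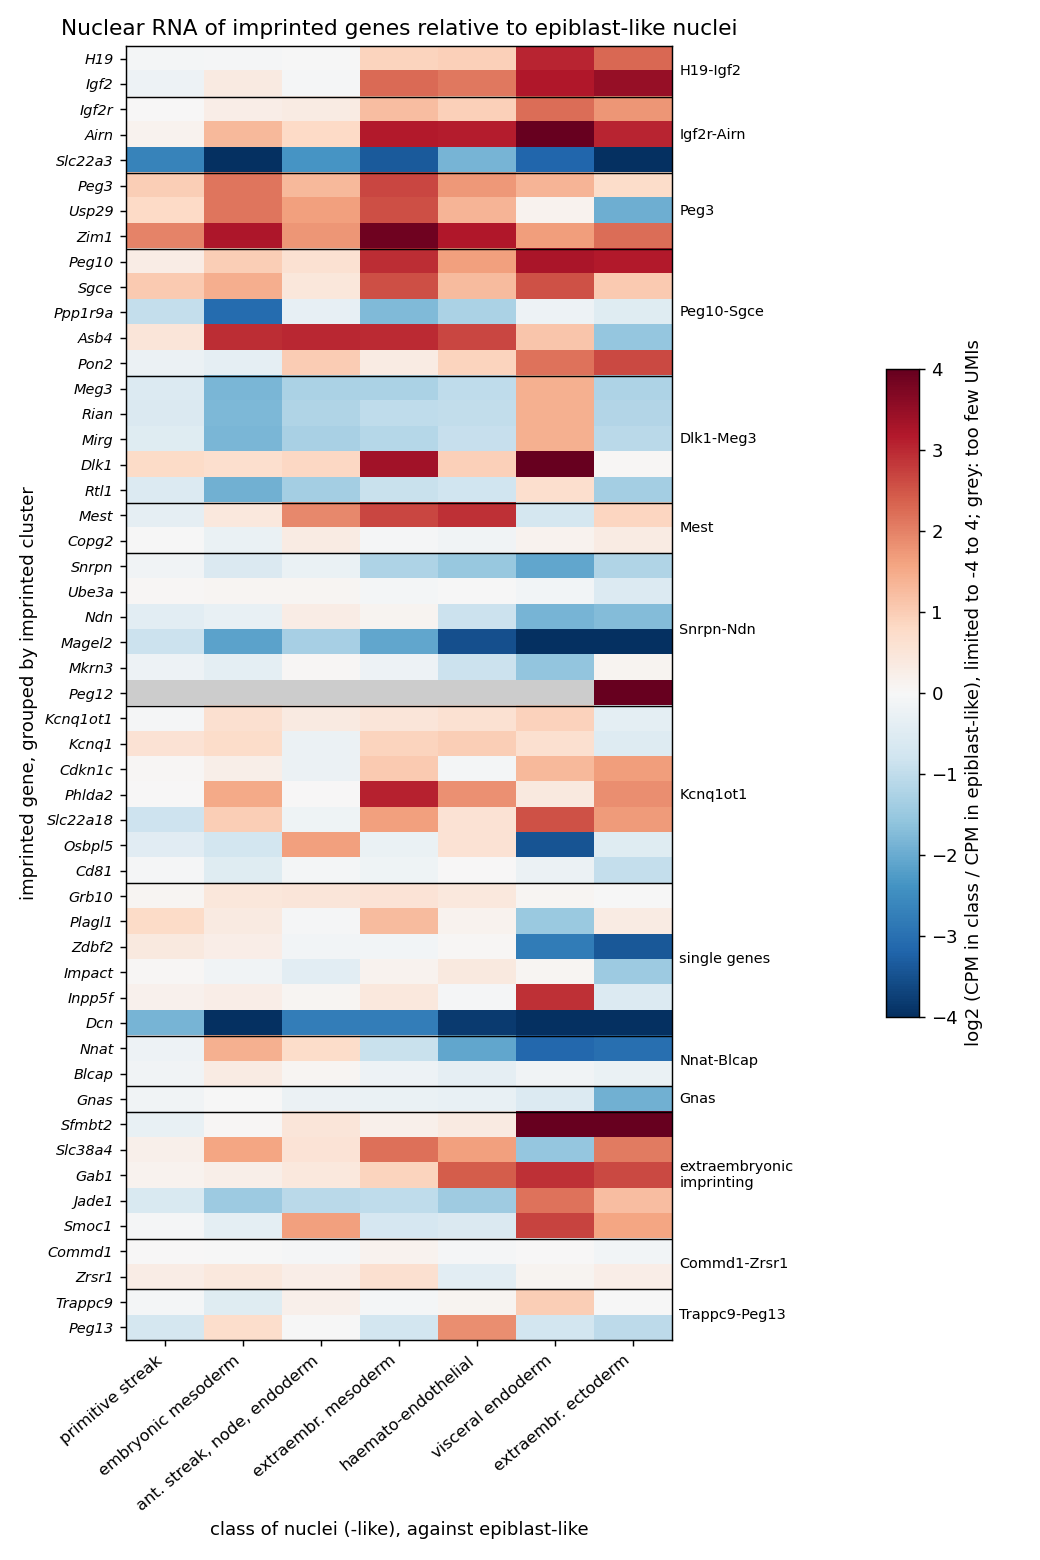
log2 ratio of RNA (CPM) in 7 named classes (columns) to epiblast-like nuclei, 1 row per member, rows grouped by imprinted cluster; red is higher, blue lower, grey too few UMIs, and colours stop at log2 ratios of -4 and 4. Sfmbt2, Airn, Peg10 and Igf2 are high in both extraembryonic classes, and Zdbf2, Nnat and Magel2 are low in both. Meg3, Rian and Mirg are high in visceral endoderm-like nuclei and low in embryonic mesoderm-like and extraembryonic ectoderm-like ones.

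Among the genes known for imprinting in extraembryonic tissue, Sfmbt2, a Polycomb family gene, differed most. Its RNA stood at 25.1 CPM in epiblast-like nuclei, 20.3 in primitive streak-like, 26.1 in embryonic mesoderm-like, 34.8 in the anterior streak class, 28.7 in extraembryonic mesoderm-like and 32.5 in haemato-endothelial-like nuclei. It stood at 889 CPM in visceral endoderm-like and 1424 in extraembryonic ectoderm-like nuclei, with 403 in cluster 14, 1133 in cluster 7 and 1549 in cluster 18; the 26 parietal endoderm-like nuclei stood at 328 CPM. With cluster 14 kept in it, the anterior streak class stood at 184 CPM. Extraembryonic mesoderm-like nuclei thus lay with the embryonic classes and not with the other extraembryonic ones. The ratio to epiblast-like nuclei was 56.8-fold (53.2 to 60.6) in extraembryonic ectoderm-like and 35.5-fold (33.2 to 37.9) in visceral endoderm-like nuclei, the latter 55.7-fold at a clustering resolution of 0.5. With nuclei thinned to 5000 UMIs, a Sfmbt2 UMI was seen in 95.9% of extraembryonic ectoderm-like nuclei (97.6% unthinned), 80.3% of visceral endoderm-like (87.3%) and 10.2% of epiblast-like nuclei (18.8%). Thinned shares, here and below, take only nuclei with at least 5000 UMIs, and unthinned shares take all nuclei of the class.

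The Sfmbt2 promoter did not follow this range. A promoter here is 1000 bp before to 100 bp after the lowest or highest start given for a gene, so starts between these are left out. A ratio of 1.5-fold with at least 50 estimated fragments counts as a difference. Sfmbt2 promoter counts stood at 26.6 CPM in epiblast-like, 29.8 in extraembryonic ectoderm-like, 25.7 in visceral endoderm-like and 20.5 in embryonic mesoderm-like nuclei. The promoter holds 2 peaks. The upstream peak went from 9.51 CPM in epiblast-like to 17.2 in extraembryonic ectoderm-like nuclei, and the downstream peak from 17.0 to 12.5. Single peaks outside promoters, here and for the genes that follow, were chosen after their values were seen, mostly for their size, from the many around each gene. Outside the promoter, a peak at chr2:10364893-10365752, 5188 bp before the start, went from 0.728 CPM in epiblast-like to 14.7 in extraembryonic ectoderm-like and 9.65 in visceral endoderm-like nuclei. The bases before both RefSeq starts are printed because their peaks went opposite ways and they differ in CpG content: the upstream window holds 8 CpG and the downstream one 15. They come from RefSeq on GRCm38.p6, plus strand, chr2:10370201-10370450 and chr2:10372186-10372435, with each CG in capitals.
Sfmbt2, upstream start: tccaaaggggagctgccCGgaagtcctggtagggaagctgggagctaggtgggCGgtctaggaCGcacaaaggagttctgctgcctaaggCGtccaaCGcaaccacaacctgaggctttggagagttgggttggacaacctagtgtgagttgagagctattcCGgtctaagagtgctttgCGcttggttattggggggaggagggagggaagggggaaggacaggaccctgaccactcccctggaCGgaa
Sfmbt2, downstream start: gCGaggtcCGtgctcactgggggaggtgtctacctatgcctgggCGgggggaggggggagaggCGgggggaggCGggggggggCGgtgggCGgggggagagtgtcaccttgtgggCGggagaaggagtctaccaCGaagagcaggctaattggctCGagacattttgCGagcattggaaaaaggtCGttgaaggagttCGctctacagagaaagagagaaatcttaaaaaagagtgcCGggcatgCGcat

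**Figure D2:**
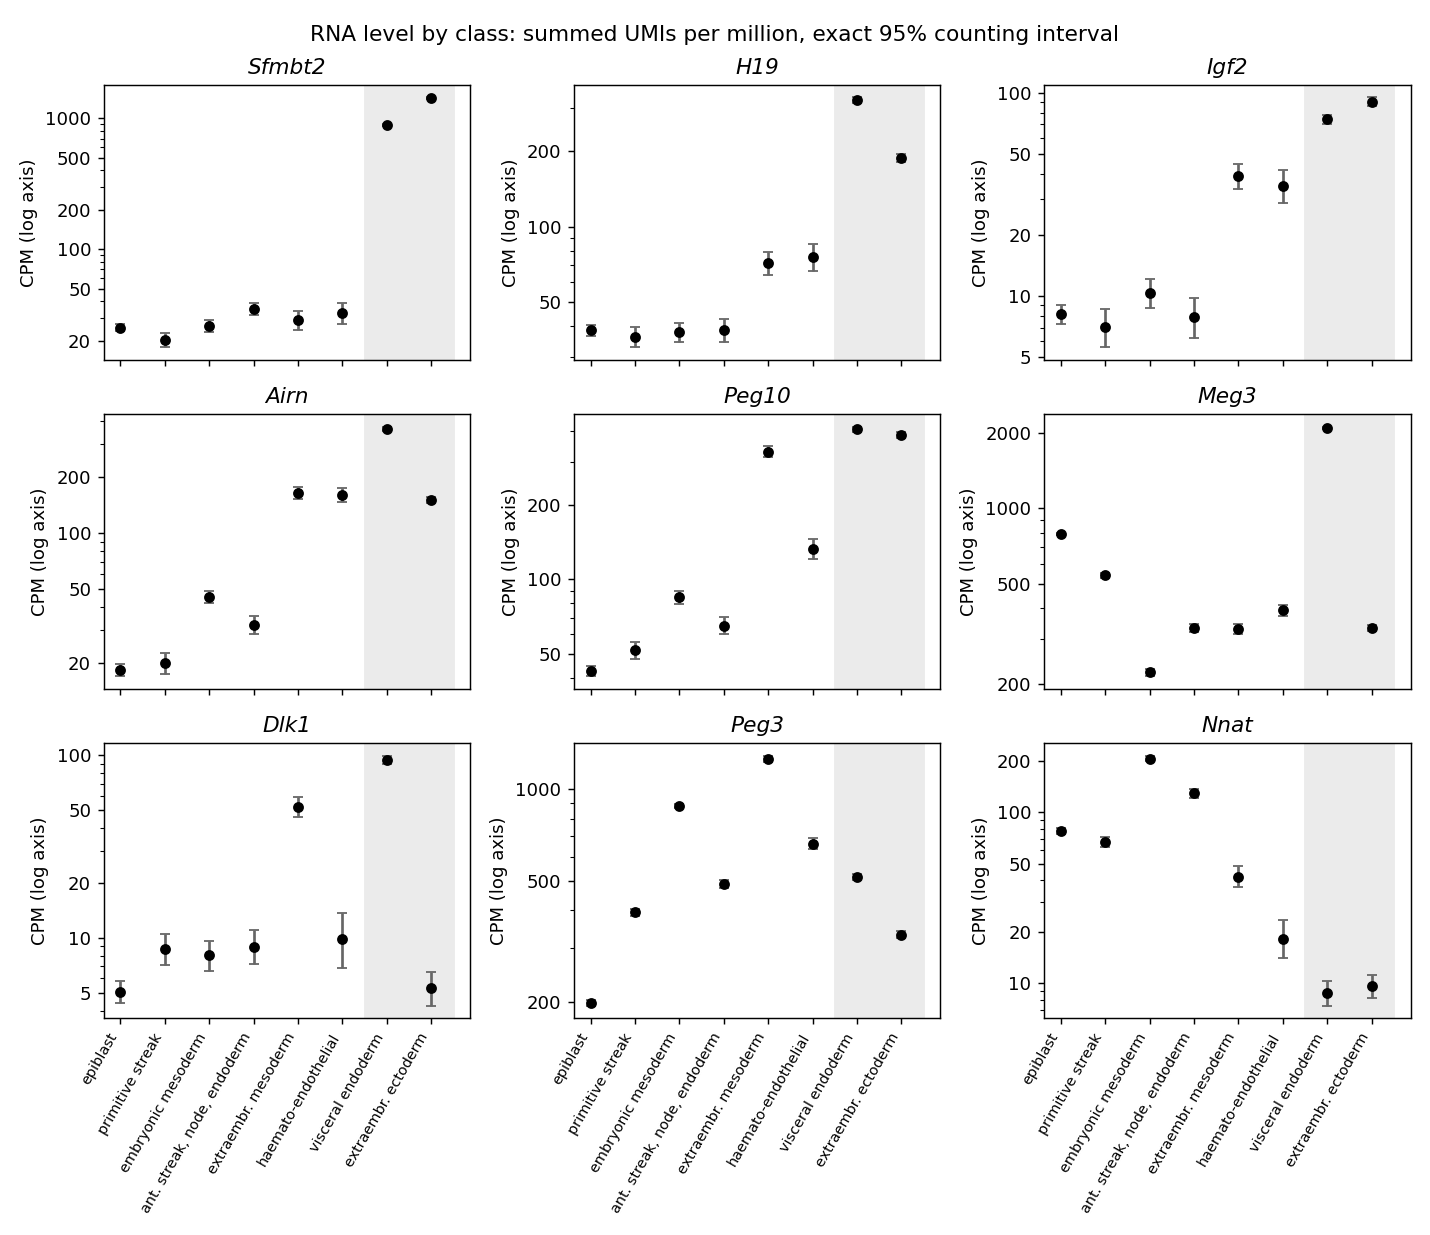
RNA level (y axis, CPM, log axis) of 9 members in the 8 larger named classes (x axis); points are the class level, bars its exact 95% counting interval, and the shaded columns are visceral endoderm-like and extraembryonic ectoderm-like nuclei. Sfmbt2 separates visceral endoderm-like and extraembryonic ectoderm-like nuclei (889 and 1424 CPM) from the epiblast-like, streak and mesodermal classes, which lie between 20.3 and 34.8 CPM with cluster 14 kept apart.

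Jade1, a scaffold protein of histone acetyltransferase complexes, was at 92.2 CPM in epiblast-like, 33.4 in embryonic mesoderm-like, 219 in extraembryonic ectoderm-like and 419 in visceral endoderm-like nuclei. The ratios to epiblast-like nuclei were 2.37-fold (2.27 to 2.48) in extraembryonic ectoderm-like and 4.55-fold (4.37 to 4.73) in visceral endoderm-like nuclei, and the level in embryonic mesoderm-like nuclei was 2.76-fold lower (2.5 to 3.04). Its promoter was 1.59-fold more open in extraembryonic ectoderm-like and 2.79-fold in visceral endoderm-like nuclei, but with windows of 2000 bp to each side the first turned direction, at 0.908 times the epiblast-like level, and the second was 1.46-fold, under the limit. Its starts behaved differently from each other. The peak at the upstream start, chr3:41555282-41556130, went from 0.652 CPM in epiblast-like to 14.5 in extraembryonic ectoderm-like and 16.8 in visceral endoderm-like nuclei, ratios of 22.2 (14.1 to 36.5) and 25.8 (16.5 to 42.2). The peak at the downstream start, chr3:41564624-41565269, was at 21.8, 21.2 and 31.0 CPM in the same order. Both starts are printed for that contrast, from RefSeq on GRCm38.p6, plus strand, chr3:41555484-41555733 and chr3:41564630-41564879. With each CG in capitals, the first holds 16 CpG and the second 18, so the start open in extraembryonic classes and the start open in all of them have like CpG content.
Jade1, upstream start: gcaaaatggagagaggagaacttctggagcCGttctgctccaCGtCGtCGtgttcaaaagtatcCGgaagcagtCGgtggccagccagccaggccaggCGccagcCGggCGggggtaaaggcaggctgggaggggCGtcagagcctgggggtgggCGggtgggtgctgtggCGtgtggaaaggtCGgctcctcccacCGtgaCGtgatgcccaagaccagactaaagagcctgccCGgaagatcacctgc
Jade1, downstream start: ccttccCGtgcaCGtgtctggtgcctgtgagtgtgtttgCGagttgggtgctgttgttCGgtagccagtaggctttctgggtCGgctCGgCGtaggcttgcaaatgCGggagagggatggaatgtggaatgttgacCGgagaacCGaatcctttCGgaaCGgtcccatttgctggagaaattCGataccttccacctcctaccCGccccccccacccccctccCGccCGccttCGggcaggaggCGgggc

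Gab1, a docking protein of receptor tyrosine kinases, was at 25.6 CPM in epiblast-like nuclei, 159 in extraembryonic ectoderm-like, 193 in visceral endoderm-like and 137 in haemato-endothelial-like nuclei, 6.22-fold (5.78 to 6.69) and 7.54-fold (7.02 to 8.1) higher in the extraembryonic ectoderm-like and visceral endoderm-like classes. A peak 21068 bp from its start, chr8:80859005-80859852, was 42.0-fold higher in extraembryonic ectoderm-like and 32.0-fold higher in visceral endoderm-like nuclei, from 0.318 CPM in epiblast-like nuclei, and the Gab1 promoter was 1.51-fold more open in visceral endoderm-like nuclei, at the 1.5-fold limit: it was at 1.49-fold with windows of 2000 bp to each side and 1.41-fold with classes from RNA clusters. Smoc1, a secreted calcium-binding protein, was 6.57-fold higher (6.1 to 7.08) in visceral endoderm-like and 3.0-fold (2.76 to 3.27) in extraembryonic ectoderm-like nuclei, and it stood at 76.0 CPM in the anterior streak class against 24.5 in epiblast-like nuclei. Slc38a4, an amino acid transporter, went a different way in each extraembryonic class. It was 4.22-fold higher (3.94 to 4.52) in extraembryonic ectoderm-like nuclei, at 134 CPM, and 2.94-fold lower (2.52 to 3.45) in visceral endoderm-like nuclei, at 10.8 CPM; in embryonic mesoderm-like nuclei it was 2.97-fold higher (2.74 to 3.21). Its promoter was 2.60-fold lower in visceral endoderm-like nuclei. When doublet calls were kept, the Slc38a4 ratio in visceral endoderm-like nuclei was 0.925, no longer past 2-fold.

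In the H19-Igf2 cluster, H19 is a growth-limiting long non-coding RNA and Igf2 encodes a fetal growth factor. H19 was at 36.2 to 38.6 CPM in the epiblast-like, primitive streak-like, embryonic mesoderm-like and anterior streak classes, at 71.4 in extraembryonic mesoderm-like and 75.4 in haemato-endothelial-like nuclei, 188 in extraembryonic ectoderm-like and 321 in visceral endoderm-like nuclei. Igf2 followed much the same order of classes, at 7.01 to 10.3 CPM in those 4 embryonic classes, 38.8 in extraembryonic mesoderm-like, 34.8 in haemato-endothelial-like, 74.1 in visceral endoderm-like and 90.5 in extraembryonic ectoderm-like nuclei. H19 was 4.88-fold higher (4.59 to 5.19) and Igf2 11.1-fold higher (9.86 to 12.6) in extraembryonic ectoderm-like nuclei. In visceral endoderm-like nuclei the ratios were 8.32 (7.85 to 8.81) and 9.12 (8.06 to 10.4). With cluster 14 kept in the anterior streak class, H19 stood at 67.3 and Igf2 at 14.8 CPM there. With it apart, both genes were lowest in the embryonic classes, intermediate in extraembryonic mesoderm-like nuclei and highest in the visceral endoderm-like and extraembryonic ectoderm-like classes among the 8 larger named ones. Visceral endoderm markers also were higher in extraembryonic ectoderm-like (2213 CPM) than in epiblast-like nuclei (859), and their part in these ratios was not tested.

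The H19 promoter was at 7.29 CPM in epiblast-like, 10.4 in extraembryonic ectoderm-like and 6.87 in visceral endoderm-like nuclei. The known control region shared by H19 and Igf2 lies shortly upstream of H19. There, a peak 2313 bp before the start, chr7:142580011-142580902, was at 5.09, 5.99 and 5.23 CPM in the same order, and one 3767 bp before it, chr7:142581474-142582346, was at 3.64, 3.57 and 4.08. These peaks stayed within 1.5-fold while the RNA ratios ran from 4.88 to 11.1. The other side of H19 held a class-specific peak: chr7:142561019-142561918, 16675 bp past the start, went from 1.20 CPM in epiblast-like to 45.1 in visceral endoderm-like nuclei, and was at 1.01 in extraembryonic ectoderm-like nuclei. Before the Igf2 start, chr7:142669649-142670531 was 32.0-fold higher (21.3 to 49.9) in extraembryonic ectoderm-like and 23.4-fold higher (15.5 to 36.8) in visceral endoderm-like nuclei. A neighbouring peak, chr7:142667992-142668783, was at 16.6 CPM in extraembryonic ectoderm-like, 1.63 in visceral endoderm-like and 0.804 in epiblast-like nuclei. The first of these peaks was shared by the classes where Igf2 was high, and the second was high in 1 of them.

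H19 and Igf2 each hold a microRNA hairpin in the RefSeq table. Their mature arms are printed to show what these transcripts can release; mature microRNAs were not measured, and the host levels above are the only values here. Seeds (bases 2 to 8) are in capitals.
mmu-miR-675-5p (H19): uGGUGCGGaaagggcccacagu
mmu-miR-675-3p (H19): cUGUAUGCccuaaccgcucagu
mmu-miR-483-5p (Igf2): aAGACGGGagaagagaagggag
mmu-miR-483-3p (Igf2): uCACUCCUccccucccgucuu

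Igf2r encodes the receptor that takes up and degrades IGF2, and Airn is the non-coding RNA transcribed antisense across part of it. Where they overlap, their reads can be told apart only by strand. Airn was at 18.3 CPM in epiblast-like, 20 in primitive streak-like, 45.4 in embryonic mesoderm-like, 150 in extraembryonic ectoderm-like, 160 in haemato-endothelial-like, 164 in extraembryonic mesoderm-like and 364 in visceral endoderm-like nuclei. Igf2r was at 46.7, 47.5, 56.7, 158, 91.3, 109 and 220 CPM in the same order. Both were thus low in these embryonic classes and high in the extraembryonic ones, including mesoderm. In the anterior streak class, Airn was at 32.1 CPM, or 136 with cluster 14 kept in it. The Airn ratio was 8.19 (7.54 to 8.91) in extraembryonic ectoderm-like, 19.9 (18.4 to 21.5) in visceral endoderm-like and 2.48 (2.22 to 2.76) in embryonic mesoderm-like nuclei. The Igf2r ratio was 3.39 (3.19 to 3.6) in extraembryonic ectoderm-like and 4.70 (4.44 to 4.98) in visceral endoderm-like nuclei. Slc22a3, an organic cation transporter of the same cluster, was low everywhere and lower outside the epiblast: 1 UMI in extraembryonic ectoderm-like against 81 in epiblast-like nuclei, a ratio of 36.4 whose interval runs from 6.35 to 1454, and 15.6-fold lower with doublet calls kept. Its promoter was 4.08-fold less open in extraembryonic ectoderm-like and 4.34-fold less in visceral endoderm-like nuclei.

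Of the 46 member promoters that could be tested, that of Airn differed most on the higher side in both extraembryonic comparisons: 4.33-fold (3.64 to 5.15) in extraembryonic ectoderm-like and 3.68-fold (3.07 to 4.4) in visceral endoderm-like nuclei. The change lay in 1 of its peaks. The peak at chr17:12740046-12740836, centred 870 bp before the start, went from 0.682 CPM in epiblast-like to 23.9 in extraembryonic ectoderm-like and 16.4 in visceral endoderm-like nuclei, and was at 1.29 in embryonic mesoderm-like and 2.79 in extraembryonic mesoderm-like nuclei. The peak at the start itself, chr17:12741117-12741819, was at 6.38, 6.71 and 9.56 CPM in epiblast-like, extraembryonic ectoderm-like and visceral endoderm-like nuclei. Extraembryonic mesoderm-like nuclei, with Airn RNA at 164 CPM, thus had little of the upstream signal. The Igf2r promoter, at 25.9 CPM in epiblast-like nuclei, stayed within 1.5-fold in both extraembryonic classes, at 29.2 and 19.9 CPM.

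Peg10, a retrotransposon-derived gene needed for the placenta, and Sgce, a sarcoglycan, are divergent neighbours that share a promoter peak, so their promoter values are 1 measurement. Peg10 was at 42.5 CPM in epiblast-like, 84.6 in embryonic mesoderm-like, 133 in haemato-endothelial-like, 329 in extraembryonic mesoderm-like, 384 in extraembryonic ectoderm-like, 406 in visceral endoderm-like nuclei and 534 in cluster 18. In embryonic mesoderm-like nuclei the ratio was 1.99, just under the limit, and 2.31 to 2.73 in the 5 alternatives that redrew the classes. Its ratios were 9.03 (8.55 to 9.53) in extraembryonic ectoderm-like and 9.54 (9.04 to 10.1) in visceral endoderm-like nuclei, with a shared promoter 1.72-fold and 1.51-fold more open (1.44-fold in visceral endoderm-like nuclei with classes from RNA clusters). Sgce was 2.05-fold higher (1.82 to 2.31), 5.80-fold (5.26 to 6.39) and 2.73-fold (2.43 to 3.07) in extraembryonic ectoderm-like, visceral endoderm-like and embryonic mesoderm-like nuclei, the first of these 1.99-fold at a clustering resolution of 2. The neighbours therefore did not keep 1 ratio to each other across classes. Farther along the cluster, Pon2, a lactonase, was 6.24-fold higher (5.35 to 7.31) in extraembryonic ectoderm-like and 4.51-fold (3.83 to 5.32) in visceral endoderm-like nuclei. Asb4, an ankyrin repeat protein, and Ppp1r9a, an actin-binding scaffold also called neurabin, differed in mesoderm. Asb4 was at 8.44 CPM in epiblast-like nuclei, at 53.9 to 68.4 in embryonic mesoderm-like, anterior streak, extraembryonic mesoderm-like and haemato-endothelial-like nuclei, and at 2.87 in extraembryonic ectoderm-like nuclei. The low value in extraembryonic ectoderm-like nuclei no longer passed 2-fold with doublet calls kept. It was at 18.1 CPM in visceral endoderm-like nuclei, 2.15-fold higher, a ratio that ran from 0.941 to 1.86 in the alternatives that redrew the classes. The Asb4 promoter was 1.94-fold more open in embryonic mesoderm-like nuclei. Ppp1r9a went the other way, from 300 CPM in epiblast-like and 156 in primitive streak-like to 35.2 in embryonic mesoderm-like nuclei, 8.51-fold lower (7.77 to 9.33), or 3.93-fold with doublet calls kept.

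The Dlk1-Meg3 cluster held a group of long non-coding RNAs that was high in visceral endoderm-like and low in extraembryonic ectoderm-like nuclei. Meg3, Rian and Mirg come from the maternal copy and may be parts of 1 long transcript, whereas Dlk1, a Notch-pathway membrane protein, and Rtl1, a retrotransposon-derived protein, come from the paternal copy. Meg3 was at 791 CPM in epiblast-like, 540 in primitive streak-like, 221 in embryonic mesoderm-like, 333 in anterior streak, 331 in extraembryonic mesoderm-like, 392 in haemato-endothelial-like, 333 in extraembryonic ectoderm-like and 2099 in visceral endoderm-like nuclei. The anterior streak class was at 676 CPM with cluster 14 kept in it. Its ratio to epiblast-like nuclei was 2.65 (2.61 to 2.69) in visceral endoderm-like nuclei, and it was 2.38-fold lower (2.31 to 2.44) in extraembryonic ectoderm-like and 3.57-fold lower (3.44 to 3.71) in embryonic mesoderm-like nuclei. Rian and Mirg moved with it: 2.69-fold and 2.68-fold higher in visceral endoderm-like, 2.26-fold and 2.1-fold lower in extraembryonic ectoderm-like, and 3.48-fold and 3.52-fold lower in embryonic mesoderm-like nuclei. Their near-equal ratios held in all 3 comparisons. With classes taken from RNA clusters instead, Mirg in visceral endoderm-like nuclei was at 1.95-fold, below the limit, and with doublet calls kept at 1.85-fold.

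The coding genes of the cluster took other paths. Dlk1 was at 5.08 to 9.86 CPM in epiblast-like, primitive streak-like, embryonic mesoderm-like, anterior streak, haemato-endothelial-like and extraembryonic ectoderm-like nuclei, and at 52 in extraembryonic mesoderm-like and 94.6 in visceral endoderm-like nuclei. In embryonic mesoderm-like nuclei the ratio was 1.58, and 2.23 to 2.99 in 4 of the alternatives that redrew the classes. A Dlk1 UMI was present in 47.4% of visceral endoderm-like nuclei (28.8% at 5000 UMIs) and in 6.2% of extraembryonic ectoderm-like nuclei (1.7%). It was 18.6-fold higher (16 to 21.7) in visceral endoderm-like nuclei than in epiblast-like ones and 1.04-fold (0.803 to 1.34) in extraembryonic ectoderm-like nuclei. Rtl1, whose strand could not be assigned and which overlaps a long antisense transcript, was 2.58-fold lower in extraembryonic ectoderm-like and 3.78-fold lower in embryonic mesoderm-like nuclei, the latter 2.47-fold with doublet calls kept.

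The Meg3 promoter was 2.36-fold less open in extraembryonic ectoderm-like nuclei and within 1.5-fold in the other comparisons, at 11.7 CPM in epiblast-like, 4.98 in extraembryonic ectoderm-like, 10.9 in visceral endoderm-like and 16.6 in embryonic mesoderm-like nuclei. With windows of 2000 bp to each side, the ratio in extraembryonic ectoderm-like nuclei was 1.16, no longer lower, and that in visceral endoderm-like nuclei 1.62, past the limit. Far upstream, chr12:109500700-109501549, 39881 bp before the start, went from 0.773 CPM in epiblast-like to 64.1 in visceral endoderm-like nuclei, a ratio of 82.9 (56.1 to 128). That peak was at 1.35 CPM in extraembryonic ectoderm-like, 13.2 in embryonic mesoderm-like and 22.4 in extraembryonic mesoderm-like nuclei, so it was also open in mesodermal classes where Meg3 RNA was low. The 250 bases before the Meg3 start are printed because they hold a match to the motif searched in all promoters, TGCCGC on either strand (GCGGCA as read on the other), the core that ZFP57, a factor that keeps imprints, is known to bind when methylated. The window is from RefSeq on GRCm38.p6, chr12:109540746-109540995, plus strand, with the match in capitals.
Meg3: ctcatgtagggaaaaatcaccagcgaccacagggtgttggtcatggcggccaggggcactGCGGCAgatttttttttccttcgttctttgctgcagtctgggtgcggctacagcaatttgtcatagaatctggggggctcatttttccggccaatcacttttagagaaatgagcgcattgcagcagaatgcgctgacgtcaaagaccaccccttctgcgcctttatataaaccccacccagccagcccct
Over all genes, 8.68% of 32851 windows of 250 bases before a RefSeq start held the motif. Of the members, 40 were in that table with 66 windows, and 8 windows (12.1%) of 7 genes held it, 17.5% of those members against 9.84% of all 27025 genes in the table. The windows held a median of 10.5 CpG in members and 6.0 over all genes, and the motif itself holds a CpG. The part of CpG content in that contrast was not tested. A match describes the letters only, and methylation was not measured.

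Meg3, Rian and Mirg hold 3, 6 and 19 mature microRNAs in the RefSeq table. Examples from Rian and Mirg follow, again as sequences of what the hosts can release and not as measured molecules, with seeds in capitals. The last pair, both in Mirg, share the seed GGUUGCC, the only seed shared by arms of 1 host among these hosts on a known strand.
mmu-miR-370-3p (Rian): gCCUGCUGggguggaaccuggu
mmu-miR-410-3p (Mirg): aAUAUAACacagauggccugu
mmu-miR-453 (Mirg): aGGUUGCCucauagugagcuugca
mmu-miR-496a-5p (Mirg): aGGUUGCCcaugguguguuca

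In the Peg3 cluster, Peg3 and Zim1 encode zinc finger proteins and Usp29 a ubiquitin protease read from the other strand, with a start in the same promoter peak as Peg3. Among the 8 larger named classes, all 3 were highest in extraembryonic mesoderm-like nuclei. Peg3 was at 199 CPM in epiblast-like, 394 in primitive streak-like, 488 in anterior streak, 881 in embryonic mesoderm-like, 1257 in extraembryonic mesoderm-like, 515 in visceral endoderm-like and 333 in extraembryonic ectoderm-like nuclei. Usp29 was at 30.8, 53.3, 96.4, 135, 186, 33.8 and 7.93 CPM in the same order. The neighbours thus rose alike in mesoderm, 4.42-fold (4.3 to 4.55) and 4.40-fold (4.09 to 4.73) in embryonic mesoderm-like nuclei, and parted in extraembryonic ectoderm-like nuclei. There, Peg3 was 1.67-fold higher (1.62 to 1.73), within the 2-fold limit, and Usp29 3.88-fold lower (3.25 to 4.66). With classes from RNA clusters Peg3 was 2.19-fold higher, and with doublet calls kept the Usp29 difference no longer passed 2-fold. In visceral endoderm-like nuclei Peg3 was 2.59-fold higher (2.51 to 2.67). Zim1 was 9.35-fold higher (6.47 to 13.8) in embryonic mesoderm-like nuclei, from 0.981 to 9.17 CPM, and 4.75-fold and 3.21-fold higher in extraembryonic ectoderm-like and visceral endoderm-like nuclei, the latter 5.20-fold with doublet calls kept. The Peg3 promoter stood at 16.7 CPM in both epiblast-like and embryonic mesoderm-like nuclei.

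Of the 6 members in the Snrpn-Ndn cluster, Snrpn, Ndn and Magel2 were lower in extraembryonic ectoderm-like nuclei, Peg12 was higher, and Ube3a and Mkrn3 were within 2-fold. Snrpn, a spliceosome protein gene whose upstream exons start a very long transcript, was at 142 CPM in epiblast-like, 95.3 in embryonic mesoderm-like, 61.1 in extraembryonic ectoderm-like and 33.5 in visceral endoderm-like nuclei, 2.32-fold and 4.24-fold lower in the last of these classes. Its promoter was 6.11-fold and 7.94-fold less open, the former 1.67-fold with windows of 2000 bp to each side. A peak at chr7:60006044-60006961, 1391 bp before a start, went from 16.4 CPM in epiblast-like to 6.69 in embryonic mesoderm-like, 0.483 in extraembryonic ectoderm-like and 0.768 in visceral endoderm-like nuclei, while chr7:60012978-60013884, 8320 bp before that start, went from 0.349 to 28.9 CPM in extraembryonic ectoderm-like nuclei. Magel2, a ubiquitin ligase partner, was at 33.5 CPM in epiblast-like, 18.6 in primitive streak-like, 7.58 in embryonic mesoderm-like, 1.81 in visceral endoderm-like and 1.44 in extraembryonic ectoderm-like nuclei. It was thus 23.3-fold lower (15.7 to 36.2) in extraembryonic ectoderm-like and 18.5-fold lower (13 to 27.4) in visceral endoderm-like nuclei. With doublet calls kept these were 9.23-fold and 4.38-fold, and with classes from RNA clusters the latter was 32.2-fold. At 5000 UMIs, 13.8% of epiblast-like and 0.3% of extraembryonic ectoderm-like nuclei had a Magel2 UMI (24% and 1.7% unthinned). Ndn, a growth suppressor of the same protein family, was 3.34-fold lower in extraembryonic ectoderm-like and 3.62-fold lower in visceral endoderm-like nuclei. Ube3a, the ubiquitin ligase of the cluster, stayed between 316 and 488 CPM over the 8 larger named classes. Peg12, a FRAT family gene, had 47 UMIs in extraembryonic ectoderm-like against 6 in epiblast-like nuclei, 17.4-fold (7.44 to 49.9), and a promoter 1.87-fold more open.

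Nnat, a small membrane protein of neural tissue, lies in an intron of Blcap. It was at 77.7 CPM in epiblast-like, 67.1 in primitive streak-like, 206 in embryonic mesoderm-like, 129 in anterior streak, 42.1 in extraembryonic mesoderm-like, 18.3 in haemato-endothelial-like, 8.74 in visceral endoderm-like and 9.60 in extraembryonic ectoderm-like nuclei. With doublet calls kept, Nnat was 3.79-fold lower in extraembryonic ectoderm-like and 2.45-fold in visceral endoderm-like nuclei, against 8.10-fold and 8.89-fold without them. The anterior streak class was at 81.5 CPM with cluster 14 kept in it. Blcap, its host, was at 18.8 CPM in epiblast-like, 23.8 in embryonic mesoderm-like, 17.2 in visceral endoderm-like and 15.5 in extraembryonic ectoderm-like nuclei, within 1.5-fold in all 3 comparisons, so the class differences of Nnat were not shared by the gene around it. The Nnat promoter was 2.88-fold less open in extraembryonic ectoderm-like and 5.92-fold less in visceral endoderm-like nuclei, and the 250 bases before its start are printed because promoter and RNA were low together. They come from RefSeq on GRCm38.p6, chr2:157559828-157560077, plus strand, and hold 12 CpG, in capitals.
Nnat: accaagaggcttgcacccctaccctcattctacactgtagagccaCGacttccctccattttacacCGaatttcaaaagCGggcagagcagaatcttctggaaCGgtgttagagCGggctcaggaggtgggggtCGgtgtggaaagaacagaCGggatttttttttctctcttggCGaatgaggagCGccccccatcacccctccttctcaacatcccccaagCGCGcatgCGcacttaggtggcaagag
Zdbf2, a zinc finger gene, was at 137 to 194 CPM in the epiblast-like, primitive streak-like, embryonic mesoderm-like, anterior streak, extraembryonic mesoderm-like and haemato-endothelial-like classes, 21.1 in visceral endoderm-like and 14.2 in extraembryonic ectoderm-like nuclei. Those 6 classes, extraembryonic mesoderm included, thus lay above the other pair, also with cluster 14 in the anterior streak class (90.0 CPM). The differences from epiblast-like nuclei, 7.0-fold and 10.4-fold lower in that order, were 2.64-fold and 4.95-fold with doublet calls kept. Its promoter was 3.44-fold less open in extraembryonic ectoderm-like and 2.01-fold less in visceral endoderm-like nuclei.

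Gnas, the stimulatory G protein subunit with several overlapping transcripts, and Impact, a translation regulator, passed 2-fold in 1 of the 3 comparisons. Gnas was at 582 CPM in epiblast-like, 576 in embryonic mesoderm-like, 396 in visceral endoderm-like and 153 in extraembryonic ectoderm-like nuclei, 3.80-fold lower (3.65 to 3.95) in the last. Its promoter was measured only at the lowest and highest of its starts, chr2:174284320 and chr2:174344317, and starts between them were not covered. There it was 6.20-fold less open in extraembryonic ectoderm-like and within 1.5-fold in visceral endoderm-like nuclei. With windows of 2000 bp to each side, the latter was 1.55-fold more open, past the limit. Impact was at 96.0, 87.5, 102 and 34.7 CPM in the same order, with a promoter 2.94-fold less open in extraembryonic ectoderm-like nuclei. With windows of 2000 bp to each side that Impact promoter ratio was 1.0, so the promoter call rests on the window.

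The Kcnq1ot1 cluster holds a long non-coding RNA, Kcnq1ot1, and placental growth regulators that it is known to silence on the paternal copy. Kcnq1ot1 was at 331 CPM in epiblast-like, 515 in embryonic mesoderm-like, 628 in visceral endoderm-like and 250 in extraembryonic ectoderm-like nuclei, within 2-fold in all 3 comparisons, and its promoter ran from 16.7 to 21.0 CPM. It is transcribed within Kcnq1 on the other strand, and Kcnq1 itself stayed at 0.92 to 2.17 CPM in these classes. Phlda2, which limits placental growth, was at 71.1 CPM in epiblast-like, 71.3 in primitive streak-like, 203 in embryonic mesoderm-like, 250 in haemato-endothelial-like, 259 in extraembryonic ectoderm-like, 600 in extraembryonic mesoderm-like and 1062 in cluster 18. The ratio was 3.64 (3.47 to 3.82) in extraembryonic ectoderm-like and 14.9 (14.2 to 15.6) in cluster 18, and with classes taken from RNA clusters it was 7.07 in extraembryonic ectoderm-like nuclei. The class of that name from RNA clusters took in 447 nuclei of an RNA cluster led by Ascl2, Gab2 and Ldoc1, which also led cluster 18. Its mix of nuclei thus differs from that of the main class. Cdkn1c, a cyclin-dependent kinase inhibitor, was at 19.2 CPM in epiblast-like, 47.4 in visceral endoderm-like, 61.2 in extraembryonic ectoderm-like nuclei and 182 in cluster 18, and its ratio in visceral endoderm-like nuclei, 2.47, was 1.64 with doublet calls kept. Slc22a18, a transporter, was at 1.16, 6.82, 3.79 and 19.6 CPM in the same order, 3.27-fold in extraembryonic ectoderm-like nuclei and 5.78-fold with RNA clusters. Phlda2, Cdkn1c and Slc22a18 were thus each higher in cluster 18 than in extraembryonic ectoderm-like nuclei.

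Promoter and RNA of Phlda2 were higher together in embryonic mesoderm-like nuclei, where the promoter went from 15.2 to 29.5 CPM (1.93-fold), and not in extraembryonic ectoderm-like nuclei, where it stood at 18.5 CPM. The 250 bases before its start are printed for that reason, from RefSeq on GRCm38.p6, chr7:143502525-143502774, minus strand, with 21 CpG in capitals.
Phlda2: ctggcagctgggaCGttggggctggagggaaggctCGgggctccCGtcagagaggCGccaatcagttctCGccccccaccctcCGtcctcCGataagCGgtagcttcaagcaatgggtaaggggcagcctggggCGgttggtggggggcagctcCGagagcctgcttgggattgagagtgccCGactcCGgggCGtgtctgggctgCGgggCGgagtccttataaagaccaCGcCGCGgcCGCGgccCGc
Osbpl5, an oxysterol-binding protein, had 3 UMIs in visceral endoderm-like and 75 in epiblast-like nuclei, 11.1-fold lower (3.64 to 54.9) and 2.41-fold with doublet calls kept, with a promoter 4.28-fold less open. Cd81, a tetraspanin, was at 76.6 CPM in epiblast-like, 54.7 in embryonic mesoderm-like, 65.3 in visceral endoderm-like and 39.3 in extraembryonic ectoderm-like nuclei, within 2-fold in all 3 comparisons, while its promoter was 2.52-fold less open in extraembryonic ectoderm-like nuclei.

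Mest, a hydrolase of mesoderm, passed 2-fold in none of the 3 main comparisons, yet it was at 46.8 CPM in epiblast-like, 178 in anterior streak, 297 in extraembryonic mesoderm-like and 352 in haemato-endothelial-like nuclei, and at 266 in cluster 14. Its neighbour Copg2, which overlaps it in part, was at 74.9 CPM in epiblast-like, 63.0 in embryonic mesoderm-like, 83.3 in visceral endoderm-like and 94.3 in extraembryonic ectoderm-like nuclei, within 1.5-fold in the 3 comparisons. Mest hosts the microRNA below, printed with its seed in capitals and not measured here.
mmu-miR-335-5p (Mest): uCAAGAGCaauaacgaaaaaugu
Grb10, an adaptor that restrains insulin receptor signalling, was at 346 to 517 CPM over the 8 larger named classes and at 1361 CPM in cluster 14, 3.87-fold (3.77 to 3.97) the epiblast-like level. With cluster 14 kept in it, the anterior streak class was at 844 CPM. Inpp5f, a phosphoinositide phosphatase, was 7.59-fold higher (7.19 to 8.02) in visceral endoderm-like nuclei, at 330 against 43.4 CPM, with a promoter within 1.5-fold and a peak at chr7:128627269-128628159 at 43.1 CPM and 81.2-fold the epiblast-like level. Plagl1, a zinc finger gene, was 2.79-fold lower (1.64 to 5.08) and Mkrn3, a ring finger gene, 2.99-fold lower (1.62 to 6.02) in visceral endoderm-like nuclei, both from under 3 CPM. The Plagl1 call was lost at a clustering resolution of 0.5 (1.70-fold lower) and with doublet calls kept (1.86-fold). Commd1 ran from 91.3 to 99.3 CPM over epiblast-like nuclei and the 3 classes compared with them, and Zrsr1 from 8.57 to 11.6, all within 1.5-fold. Trappc9 was at 44.1 CPM in epiblast-like, 31.5 in embryonic mesoderm-like, 44.0 in extraembryonic ectoderm-like and 86.5 in visceral endoderm-like nuclei, the last 1.96-fold higher (1.83 to 2.11), under the limit. Peg13, which lies within Trappc9, was 2.05-fold lower (1.3 to 3.37) in extraembryonic ectoderm-like nuclei, close to the limit and at 1.84-fold lower with classes from RNA clusters. Dcn, a matrix proteoglycan imprinted in placenta, had 161 UMIs in epiblast-like, 1 in extraembryonic ectoderm-like, 2 in visceral endoderm-like and 3 in embryonic mesoderm-like nuclei. The ratio was 72.3-fold lower in extraembryonic ectoderm-like nuclei (12.8 to 2873), and the promoter was 9.38-fold less open. It was 21.5-fold lower there with doublet calls kept, and in visceral endoderm-like nuclei 35.6-fold, or 4.14-fold with doublet calls kept. The decidua marker list, a maternal tissue, summed to 22.1 CPM in epiblast-like and 5.4 in extraembryonic ectoderm-like nuclei. It was at 3.79 CPM in visceral endoderm-like, 10.9 in embryonic mesoderm-like and 30.5 in extraembryonic mesoderm-like nuclei. In that list Pgr had 1412 UMIs and Prl8a2 2 over all kept nuclei. Its part in the Dcn difference was not tested.

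Promoters were counted beside the RNA. In extraembryonic ectoderm-like nuclei, 6 of 46 member promoters were more open and 15 less open, where 7.56% and 26.6% of all promoters were. In visceral endoderm-like nuclei, 6 were more and 10 less open, against 10.8% and 28.0%, and in embryonic mesoderm-like nuclei 2 and 6, against 4.69% and 11.1%. These counts and those below take Peg10 and Sgce as 2 members, although their promoter is 1 shared peak. Of the 16 members with lower RNA in extraembryonic ectoderm-like nuclei, 10 had a less open promoter, 2 were within 1.5-fold and 4 could not be tested. Meg3 and Impact, among the 10, were no longer less open with windows of 2000 bp to each side. Gnas, also among the 10, was measured at its outermost starts only. Of all genes with lower RNA there and a testable promoter, 56.2% had a less open one. Of the 17 with higher RNA, 5 had a more open promoter (Airn, Peg10, Sgce, Peg12 and Jade1, the last not with the wider windows) and 11 were within 1.5-fold, Sfmbt2, H19, Igf2r and Phlda2 among them, where 23.4% of all genes with higher RNA and a testable promoter had a more open one. The same counts for visceral endoderm-like nuclei were 9 of 11 on the lower side and 6 of 21 on the higher side, against 52.7% and 30.7% of all such genes, and in embryonic mesoderm-like nuclei 2 of 9 and 2 of 9, against 33.4% and 14.1%. In these counts 1 and 3 visceral endoderm-like and 3 and 0 embryonic mesoderm-like members had no testable promoter. Of the 6 more open promoters in visceral endoderm-like nuclei, Jade1 and Gab1 fell under the limit with the wider windows. Peg10, Sgce and Gab1 did so with classes from RNA clusters. No member had RNA and promoter past their limits in opposite directions in these comparisons. The share of all genes with such opposite calls is not given here, so that count describes the members only. RNA and promoter ratios had the same sign for 31 of 46, 30 of 45 and 28 of 45 members in the 3 comparisons, where 64.2%, 60.3% and 63.0% of all genes did.

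**Figure D3:**
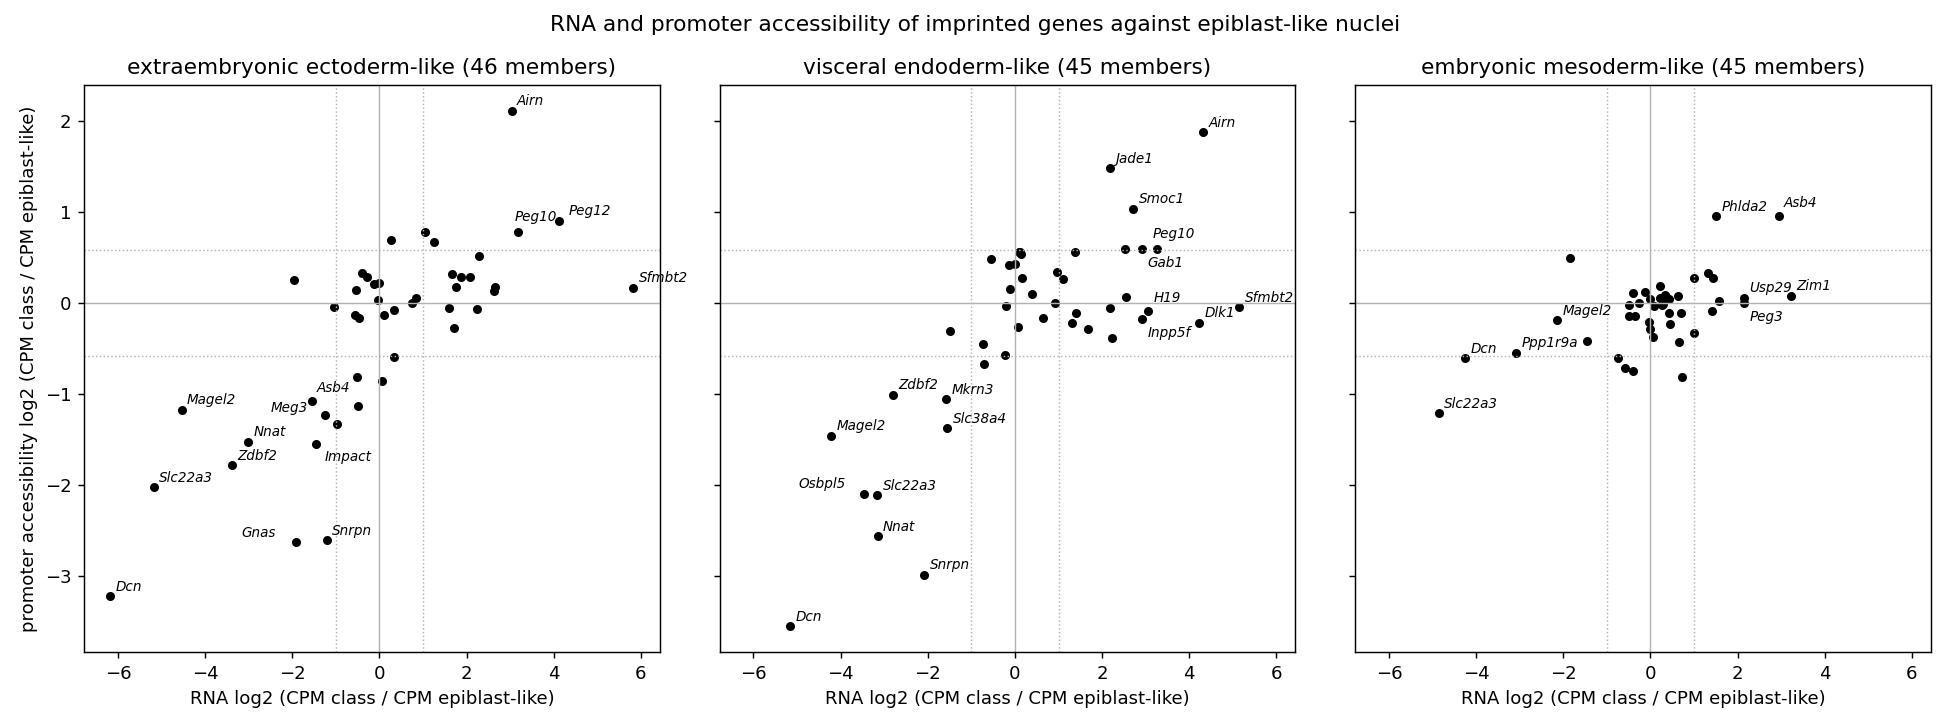
log2 ratio of promoter accessibility (y axis) against log2 ratio of RNA (x axis) to epiblast-like nuclei, 1 point per member with both values, 1 panel per comparison; dotted lines mark 2-fold in RNA and 1.5-fold at promoters. Sfmbt2 lies far to the right with its promoter near 0, while Snrpn, Nnat, Zdbf2 and Dcn lie low on both axes in the extraembryonic panels.

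Within 50000 bp of the stretch from a member's first start to its last lay 794 peaks. In extraembryonic ectoderm-like nuclei, 489 could be tested at 2-fold, of which 80 were more and 178 less open, against 15.6% and 37.2% of all peaks. In visceral endoderm-like nuclei the counts were 131 and 174 of 519, against 17.1% and 43.3%, and in embryonic mesoderm-like nuclei 84 and 62 of 502, against 13.7% and 16.3%. A peak near Peg12, chr7:62495015-62495929, was at 14.5 CPM in extraembryonic ectoderm-like nuclei, 137-fold (52.4 to 509) the epiblast-like level. One near Kcnq1ot1, chr7:143286458-143287365, was at 38.2 CPM in visceral endoderm-like nuclei, 66.2-fold. In embryonic mesoderm-like nuclei, a peak near Slc22a18, chr7:143485266-143486132, was at 24.8 CPM, 35.6-fold, and at 28.8 CPM in extraembryonic mesoderm-like nuclei, and one near Mest, chr6:30720799-30721682, was at 21.3 CPM, 17.8-fold. Nearness to a start does not tie a peak to that gene.

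**Figure D4:**
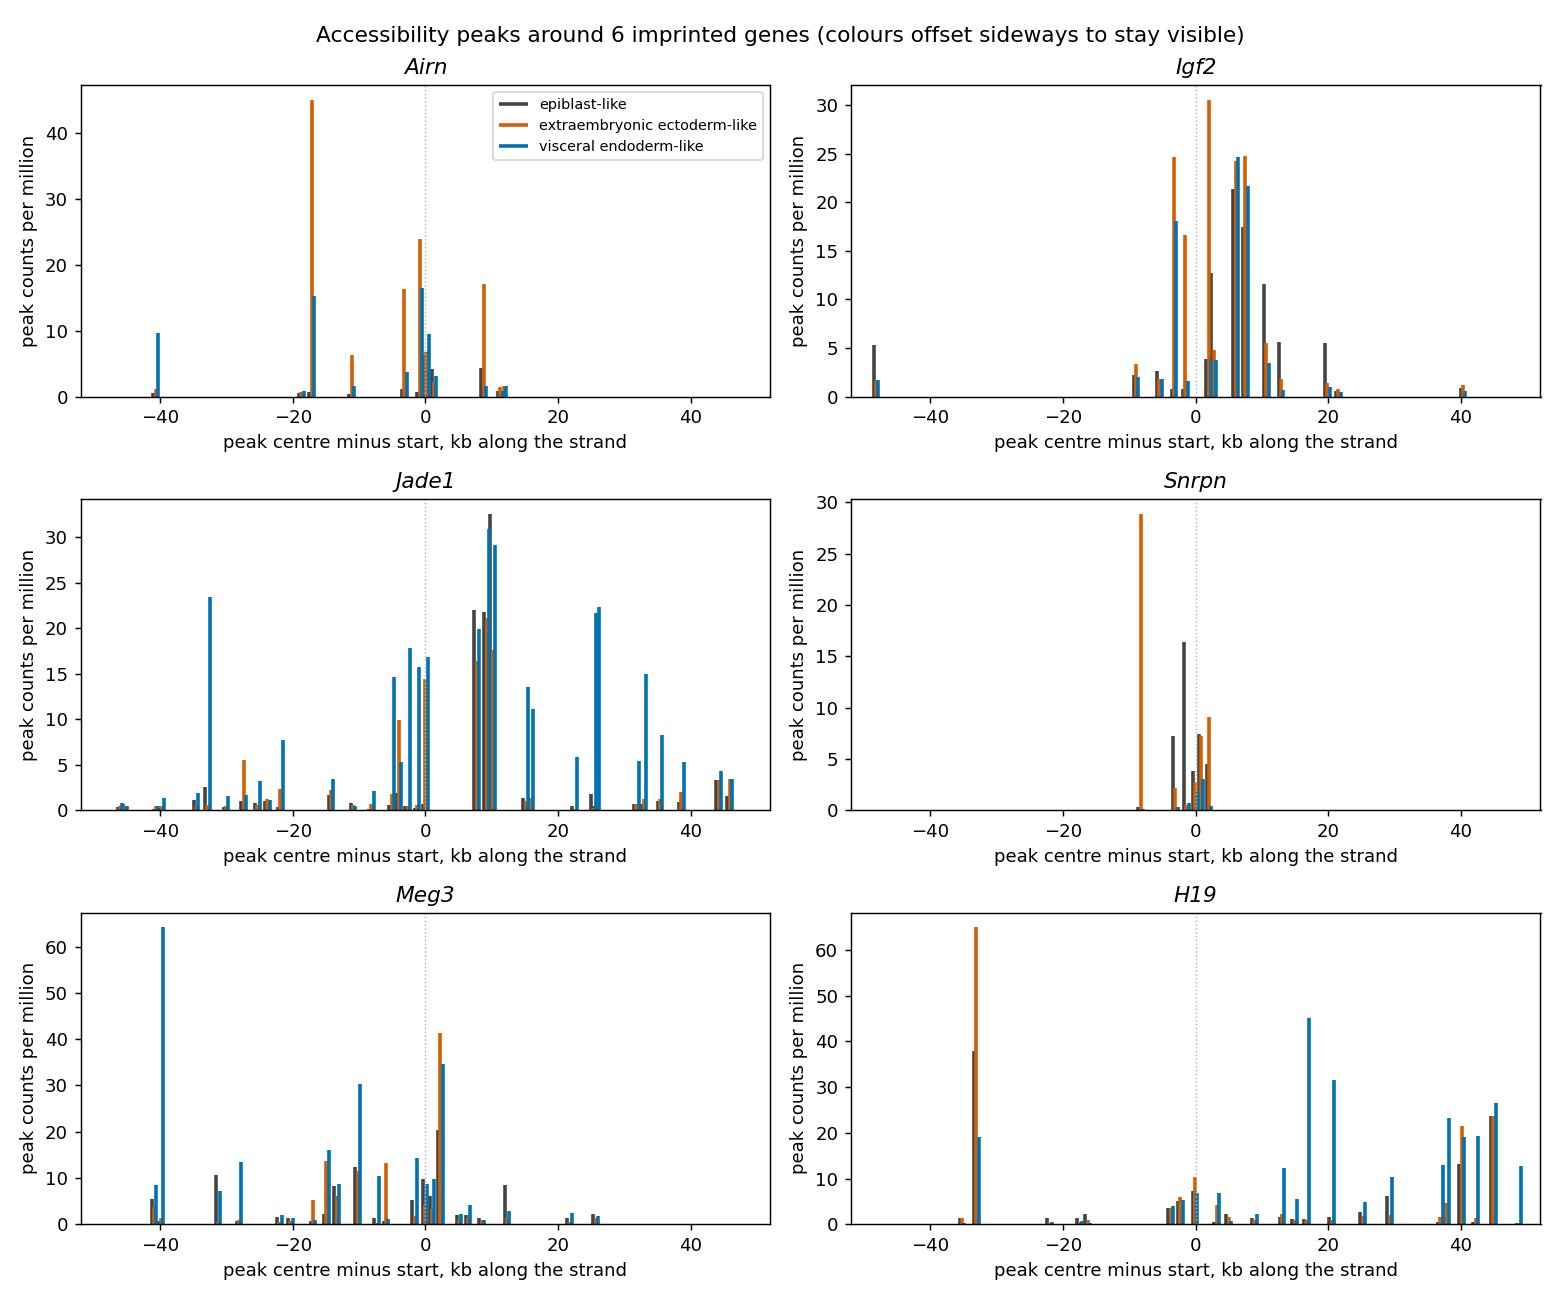
Peaks around a start of Airn, Igf2, Jade1, Snrpn, Meg3 and H19: x axis, distance of the peak's centre from the start in kb along the gene's strand; y axis, peak counts per 1000000 counts of the class; grey lines, epiblast-like; orange, extraembryonic ectoderm-like; blue, visceral endoderm-like nuclei. The Airn peak 870 bp and the Igf2 peak 3274 bp before the start are high in both extraembryonic classes and low in epiblast-like nuclei, and the H19 peak 16675 bp past the start is high in visceral endoderm-like nuclei.

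Levels of members were also compared across the 21 accessibility clusters with enough nuclei, as Pearson's r of log2(CPM + 1). The clusters come from 1 library and share depth and free RNA, so r is a description. Within the Dlk1-Meg3 cluster, Meg3 had r = 0.99 with Rian and 0.99 with Mirg. Igf2r and Airn had r = 0.96, H19 and Igf2 0.92, and Igf2 and Peg10, on different chromosomes, 0.96. The median r was 0.40 over 60 pairs of members in 1 imprinted cluster and 0.02 over 1116 pairs in different ones. Among genes other than the members of its own cluster, Sfmbt2 was most like Gm13261 (r = 0.99), whose start lies 3531 bp from that of Sfmbt2 so that their reads may overlap, then Triml2 (0.98) and Gm17067 (0.97). H19 was most like Dgat2 (0.97), Lxn (0.97) and Napa (0.97). Meg3 was most like B830012L14Rik (0.99), 135272 bp along the same chromosome and between Rian and Mirg, so that their reads or transcript may be shared, then Dmd (0.95) and Fras1 (0.94).

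Other imprinted genes and the factors that keep imprints were counted from separate lists. In extraembryonic ectoderm-like nuclei, 6 of 23 other imprinted genes were higher and 5 lower, and 3 of 21 maintenance factors were higher and 4 lower, against the 10.0% and 21.0% of all genes. Platr20 was 79.6-fold higher (39.9 to 186), Gm32885 21.3-fold and Ascl2, a trophoblast transcription factor, 6.89-fold. Calcr, the calcitonin receptor, was 35.2-fold lower, Atp10a, a lipid flippase, 7.70-fold lower, and Begain had 0 UMIs against 77, at least 11.5-fold lower with a floor of 3 counts per class. Dnmt3l, the cofactor of de novo DNA methylation, was 14.8-fold higher (13 to 17.1), while Dnmt3a, a de novo methyltransferase, was 7.30-fold lower (6.6 to 8.09). In visceral endoderm-like nuclei, 7 of 25 other imprinted genes were higher and 6 lower, and 1 of 21 maintenance factors was higher and 4 lower, against 14.8% and 22.4%. Platr20 was 58.2-fold higher, Tfpi2 16.7-fold, Ddc 13.2-fold, Platr4 12.9-fold and Xlr4b 10.3-fold, and Atp10a was 32.2-fold, Calcr 13.6-fold and Begain 8.52-fold lower. In embryonic mesoderm-like nuclei, 1 of 22 other imprinted genes was higher and 6 lower, and 2 of 21 maintenance factors were higher and 3 lower, against 6.4% and 11.3%. Zfp57 was 4.41-fold higher (3.99 to 4.88) and Tet2, which oxidises methylcytosine, 2.81-fold, while Calcr was 5.82-fold, Tet3 4.50-fold, Cobl 4.15-fold, Dnmt3a 3.22-fold, Gatm 2.60-fold and Gpr1 2.57-fold lower.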

How the data were processed

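The authors deposited whole-number counts in 1 sparse matrix, UMI counts per gene and counts per accessibility peak, written by Cell Ranger ARC 2.0.0 per the file headers, on mm10 per the submitters' processing notes. Peak calling and barcode filters beyond that software are not given in the sources used here. Of the nonzero peak counts 86.4% were even, so intervals used the count divided by 2 and rounded up, as estimated fragments. The libraries held 182201512 UMIs and 273131304 peak counts.

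Barcodes with at least 1000 UMIs, 500 genes and 1000 peak counts, at most 20% mitochondrial UMIs and no doublet call (Scrublet in scanpy 1.11.5; 7.52% called) were kept. Of 229480 peaks, 223180 seen in at least 50 nuclei and not within 100000 bp of a member's starts gave 30 latent components, 15 neighbours and 22 clusters (leidenalg 0.10.2, resolution 1, seed 0). Counts were summed per class. Ratios of CPM have exact conditional binomial intervals (scipy 1.17.1). On simulated counts with counting error alone, which the intervals assume, they covered the true ratio for 95.6% of genes. The simulation held no variation between nuclei or embryos, so it checks the computation only. Strand was inferred from RefSeq genes of GRCm38.p6 for 49 members; Rtl1 and Impact were undecided and took windows of 1000 bp to each side. Of the members, 47 had a promoter peak; Igf2, Rian, Mirg and Rtl1 had none.

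Every member found is named. Those with at least 200 UMIs were to have full values, and class levels are printed for those the results turn on; in each main comparison all members past 2-fold were to be named, up to 20 by size, with up to 8 other imprinted or maintenance genes, and the 3 genes most like Sfmbt2, H19 and Meg3. The members, lists, limits and rules were chosen with earlier results of these data known. Whether counting used strand is not given in the sources used here, so overlapping neighbours (Igf2r and Airn, Kcnq1 and Kcnq1ot1, Meg3 to Mirg and Rtl1, Peg3 and Usp29, Mest and Copg2, Nnat and Blcap, Commd1 and Zrsr1, Trappc9 and Peg13, and the Gnas transcripts) may share reads.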

Additional observations from a re-analysis of the deposited data

How the results depend on the processing

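Alternatives changed 1 setting at a time: classes from RNA clusters, clustering resolutions of 0.5 and 2, deeper nuclei (the UMI and peak count minimums raised together), doublet calls kept, scaling by the median of ratios, limits of 10 or 200 UMIs and of 10 fragments, a promoter limit of 2-fold and promoter windows of 2000 bp to each side. Members with lower RNA in visceral endoderm-like nuclei numbered 6 with the 200 UMI limit, against 11. With a promoter limit of 2-fold, more open member promoters numbered 1 in extraembryonic ectoderm-like nuclei, against 6, and 3 in visceral endoderm-like, against 6. In embryonic mesoderm-like nuclei there were then 0 more open, against 2, and 1 less open, against 6. Shares of all genes or promoters under these alternatives are not given here, so such drops cannot be set against a general one. With classes from RNA clusters, 3 promoters were more open in visceral endoderm-like nuclei, against 6; Peg10 and Sgce, with 1 shared peak, are 2 of those lost. The other counts of RNA calls stayed within 1.5 times, with 14 to 18 higher in extraembryonic ectoderm-like, 18 to 23 in visceral endoderm-like and 8 to 12 in embryonic mesoderm-like nuclei. The sizes of the RNA ratios were less stable than these counts. With doublet calls kept, 83 ratios were counted as moved and 68 as the same. With classes from RNA clusters, 72 moved and 79 were the same. In the other alternatives of clustering, depth and scaling, 25 to 54 moved. The counting intervals do not cover such changes of processing.

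Of the values past their limit, the direction turned for Asb4 RNA in visceral endoderm-like nuclei at resolution 0.5 (log2 ratio -0.088), and for the promoters of Meg3 (0.22), Impact (0.0057) and Jade1 (-0.14) in extraembryonic ectoderm-like nuclei with windows of 2000 bp to each side. At resolution 0.5 the visceral endoderm-like class held a different mix of nuclei, as given above. The cause of these turns was not tested. Among values within the limits, the sign also changed for Kcnq1 RNA in extraembryonic ectoderm-like, Grb10 RNA and the promoters of Asb4 and Meg3 in visceral endoderm-like nuclei. Dlk1 in embryonic mesoderm-like nuclei reached 2.99-fold with doublet calls kept, and Grb10 in visceral endoderm-like nuclei was at 0.438-fold at resolution 0.5. Keeping cluster 14 in the anterior streak class, chosen after seeing the data, changed the levels of that class alone, most for Sfmbt2 (5.28 times) and Airn (4.24 times). No paired analysis was possible because each assay has 1 library. With 1 pool of embryos, differences between embryos were not measured, and members under about 50 UMIs over a pair of classes could not be called at this depth.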
